A study of Mus musculus with 10 samples.

Results

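The 45 genes described here encode the machinery that copies DNA once per cell cycle. They were chosen by name, from the origin recognition complex through the helicase, polymerases, sliding clamp and its loader to 4 enzymes of nucleotide supply; the rule itself uses no measured value. All 45 had a row among the 21969 genes of the deposited matrix, all passed the filter that left 15671 genes for testing, and each was at FPKM 1 or more in all 10 libraries. FPKM is a gene's sequenced fragments divided by how long its transcript is and how many fragments of that library mapped. Because of the scaling by length, levels of different genes can be set side by side.

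The origin recognition complex (ORC) marks the places where replication can start. In G1 phase, Cdc6 and Cdt1 help it to load the MCM2-7 helicase, and geminin, the product of Gmnn, binds Cdt1 in S phase so that no origin is loaded again. The Dbf4-dependent kinase, Cdc45 and the GINS complex then turn the loaded helicase into a moving fork, where primase, the replicative DNA polymerases, the clamp PCNA, the clamp loader RFC and the single-strand binding protein RPA make the new strands. Many of these genes are known targets of E2F transcription factors, and their mRNA is abundant in cycling cells. In the testis, spermatogonia divide by mitosis, early spermatocytes replicate their DNA for the last time, and spermatids no longer replicate it.

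The samples were 10 RNA-seq libraries of mouse strain DBA/2, 2 in each of 5 groups, all labelled as spermatogonial stem cells, from which sperm production is renewed. Week 0 was labelled as 0 weeks of culture: adult testis cells selected with magnetic beads for the surface protein CD9. Weeks 1, 2 and 3 were such cells kept for that time in a medium based on Iscove's, with 15 ng/ml of rat GDNF, 10 ng/ml of human FGF2 and 1% fetal bovine serum. GS cells are cultures of spermatogonial stem cells that were already established, grown in the same medium. The labels name no transgene or deletion in any group, and the sources used here do not say whether feeder cells were present. Nothing in the labels says that the 2 libraries of a group came from separate animals or cultures, so a p-value reflects no more than the spread between libraries, possibly a technical one. Values below are the authors' FPKM, with replicate 1 before replicate 2.

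Depth estimated from the steps between low FPKM values was 10.4 to 21.15 M reads per library. The estimate takes 200 bases as the fragment length and assumes that each library was scaled by its own reads. The sources used here do not give that scaling. Replicates correlated at r = 0.9869 to 0.9935 across genes, which are not independent of each other. At the estimated depth the least covered gene of the 45 in any library was Gins3 in week 0 replicate 1, with an estimated 75 reads. The labelled cell type had its markers in every group. The summed level of 15 markers of undifferentiated spermatogonia was 109 and 116 FPKM at week 0, 389 and 406 at week 1 and 734 to 883 in the other libraries, with 0 of the 15 listed at 0 in any library. Week 0 also held RNA of germ cells past replication. There, 15 spermatid markers summed to 26188 and 27954 FPKM and 14 spermatocyte markers to 5572 and 5206, against 179 and 170.2 and 261 and 216 at week 1. At week 1 the 15 fibroblast and matrix markers reached 9386 and 9295 FPKM, against 1134 and 1323 at week 0 and 959 and 1005 at week 2. The part these other cells have in the results below was not tested, and in bulk RNA fewer cells of a type cannot be told apart from less RNA per cell.

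Promoter windows from RefSeq (assembly GRCm38.p6, the build that mm10 names) were found by symbol for 37 of the 45 genes, each running from 250 bases before the transcript start to 50 after it. The genes with no window were Mcm4, Prim2, Rfc2, Pole, Gins4, Gins2, Gins1 and Gmnn. An E2F site, searched on both strands as TTTCCCGC, TTTCGCGC, TTTGCCGC or TTTGGCGC, stood in the windows of 14 of these 37 genes, or 37.8%, against 4.25% of the 12091 tested genes with a window and 2.26% of all 32851 windows. The 14 were Orc1, Orc3, Cdc6, Cdt1, Mcm3, Mcm5, Mcm6, Mcm7, Gins3, Pola1, Pold1, Pole2, Rfc3 and Lig1. The CCAAT box stood in 22 of the 37, or 59.5%, against 42.7% of tested genes, and the CHR element TTTGAA in 7, or 18.9%, against 14.7%. The E2F letters were in 10 of the 23 genes with a window that rose from week 0 to week 1, in 1 of the 5 that fell (Mcm7) and in 3 of the 9 that passed in neither direction. The fall of Mcm7 turned into a called rise with quantile normalization. That of Rfc1, another of the 5, passed under neither of the 2 other scalings described below. Among the genes with no window, Gmnn, Gins1, Gins2, Gins4 and Rfc2 also fell, and only Mcm4 and Pole rose. The genes that fell are therefore less fully covered, and their share was not compared with that of the genes that rose. A match describes letters and is neither a bound site nor a cause, and genes without one may still be E2F targets.

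The 250 bases before the start are shown for 3 genes that rose at week 1 and hold an E2F match, and for Rpa1, which fell and holds none. These examples were picked by direction and match, so they show nothing about a link between the 2. Mcm7, which fell and holds a match, and the genes that rose without a match are not shown. The bases are written 5′ to 3′ on the strand of the gene, as in the reference assembly and not as read from DBA/2 cells, with E2F matches and CCAAT boxes in capitals. The Mcm5 window (chr8:75109259-75109508, plus strand) has a pair of overlapping E2F matches on opposite strands at -153 to -142 from the start. In the Mcm6 window (chr1:128359706-128359955, minus strand) such a pair lies at -110 to -99, with a separate match at -47 to -40. The Pola1 window (chrX:93632156-93632405, minus strand) has its E2F match at -138 to -131, and the Rpa1 window (chr11:75348384-75348633, minus strand) has a CCAAT box and no E2F match.
Mcm5: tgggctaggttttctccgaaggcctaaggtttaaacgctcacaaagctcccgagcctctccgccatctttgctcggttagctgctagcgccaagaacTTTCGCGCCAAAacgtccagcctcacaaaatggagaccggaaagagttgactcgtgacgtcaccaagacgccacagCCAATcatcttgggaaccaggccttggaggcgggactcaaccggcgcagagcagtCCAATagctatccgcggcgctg
Mcm6: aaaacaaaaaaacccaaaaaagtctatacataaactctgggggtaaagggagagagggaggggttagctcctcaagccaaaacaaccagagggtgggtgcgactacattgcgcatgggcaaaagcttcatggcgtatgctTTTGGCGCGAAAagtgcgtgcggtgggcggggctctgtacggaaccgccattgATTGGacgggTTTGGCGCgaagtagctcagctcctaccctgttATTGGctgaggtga
Pola1: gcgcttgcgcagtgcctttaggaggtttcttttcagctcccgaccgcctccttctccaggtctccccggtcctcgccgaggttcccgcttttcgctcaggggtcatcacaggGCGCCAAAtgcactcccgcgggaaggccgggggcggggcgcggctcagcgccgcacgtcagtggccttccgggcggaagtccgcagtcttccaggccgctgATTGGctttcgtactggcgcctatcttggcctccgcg
Rpa1: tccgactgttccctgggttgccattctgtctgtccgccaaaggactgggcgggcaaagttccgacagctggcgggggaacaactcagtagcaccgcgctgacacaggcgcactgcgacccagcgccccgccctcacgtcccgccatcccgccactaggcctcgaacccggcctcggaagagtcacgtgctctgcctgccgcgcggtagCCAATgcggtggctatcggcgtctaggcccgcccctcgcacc

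Summed over the 45 genes, the level was 1746 and 1811 FPKM (week 0), 2034 and 2038 (week 1), 3429 and 3496 (week 2), 2836 and 2849 (week 3) and 2964 and 2968 (GS cells). The group with the highest mean was week 2 for 23 of the 45 genes, or 51.1%, against 8.42% of all tested genes. Week 0 was the lowest group for 31 of them, or 68.9%, against 33.2% of tested genes. In 27 of the 45 genes all 8 cultured libraries stood above both week 0 libraries, a pattern found in 4233 of the 15671 tested genes, or 27%. In 3 of the 45 genes (Gins2, Rfc2 and Rpa1) all 8 stood below them, against 38.2% of tested genes. Both week 2 libraries were above all 8 others in 17 of the 45 genes, against 3.93% of tested genes. In limma's F test across the 5 groups 44 of the 45 genes differed between groups, where 93.8% of all tested genes did, so this count is near the background. The exception was Orc5, with adjusted p = 0.257.

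**Figure D1:**
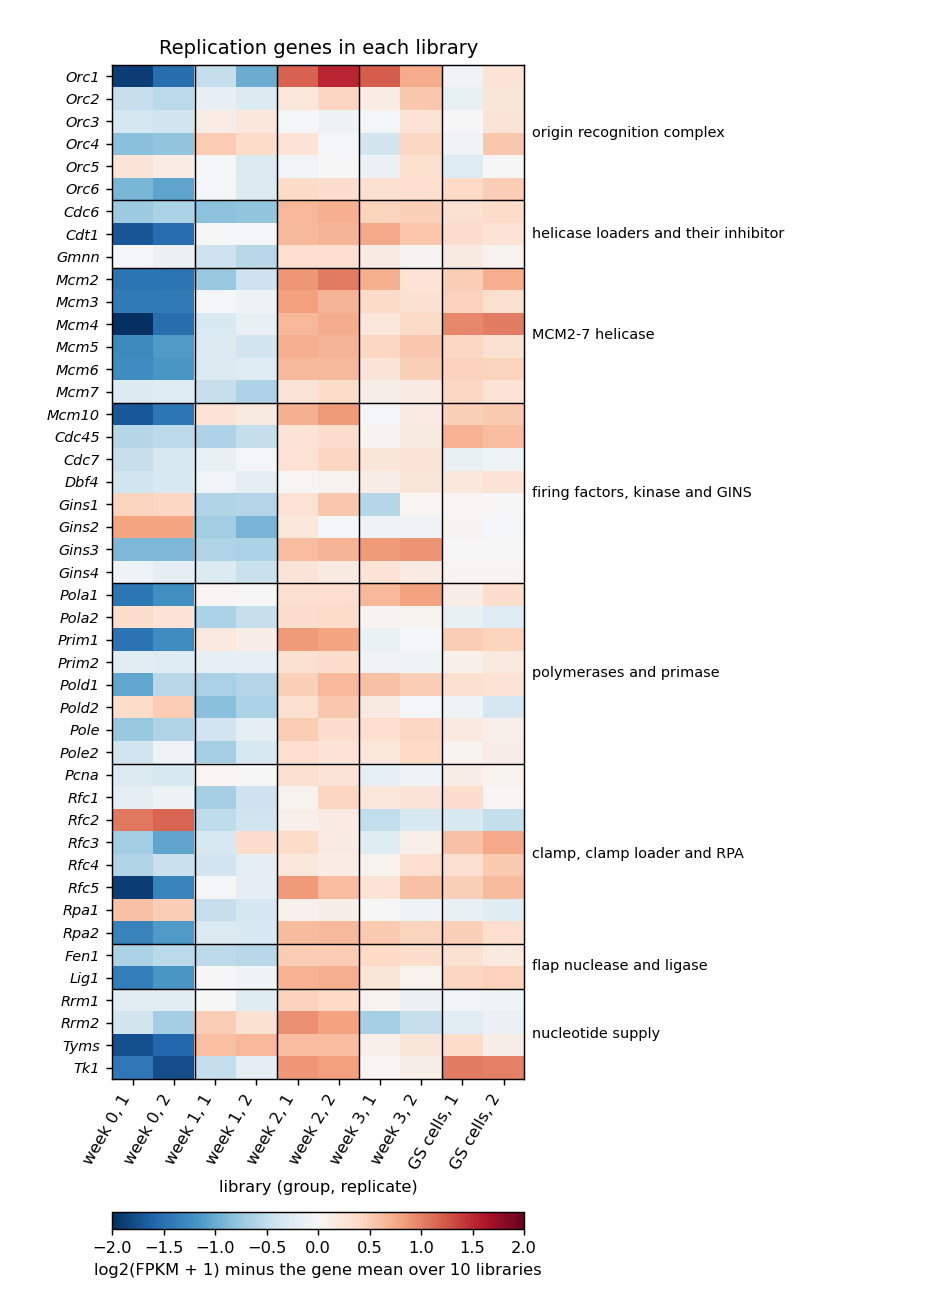
Each row is 1 of the 45 genes, ordered by role, and each column 1 library. The colour gives log2(FPKM + 1) minus the gene's mean over the 10 libraries, and most rows are blue (below that mean) at week 0 and red (above it) at week 2. Among the rows that are red at week 0 are Gins1, Gins2, Orc5, Pola2, Pold2, Rfc2 and Rpa1.

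From week 0 to week 1, 35 of the 45 genes passed the test (limma on log2(FPKM + 1), Benjamini-Hochberg adjusted p under 0.05), 25 of them higher and 10 lower. The background was 80.3% of tested genes called, 36.3% higher and 44% lower, so the count of calls was near it and the share of genes that rose was above it. The median log2 difference was 0.29 over the 45 genes and -0.14 over all tested genes. Mean FPKM was at least 2-fold higher in 12 of the 45 genes, or 26.7%, and at least 2-fold lower in 4. Among all genes 24.6% were at least 2-fold higher and 34.6% at least 2-fold lower, so the share of large rises was near the background. Of 15 genes used in every cell, such as Actb and Gapdh, 12 rose and 2 fell at this step, with a median log2 difference of 1.15, and their summed level was 7219.8 and 7691 FPKM at week 0 and 17062 and 16170.3 at week 1. That median was above the 0.29 of the replication genes. The part of this shift in the rise of the replication genes was not tested. The scalings that follow are not set by these 15 genes, so they cannot show it. The split depended on the scaling: it was 34 higher and 6 lower with quantile normalization, and 32 higher and 6 lower with each library set to a common FPKM sum. Those scalings put the median of all genes at 0.38 and 0.088. They called 82.9% and 80.4% of all tested genes. Of these calls 59.8% and 51.8% were higher, against 45.2% in the main fit, so the background rose too. The 6 genes lower under all 3 scalings were Gins1, Gins2, Pola2, Pold2, Rfc2 and Rpa1.

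From week 1 to week 2, 38 genes rose and 0 fell, where 55.6% of tested genes were called, 28.2% higher and 27.4% lower. At an unadjusted p under 0.05 the counts were 38 higher and 0 lower, where 31.1% of tested genes were higher and 29.2% lower. The median log2 difference was 0.75 over the 45 genes and 0.025 over all tested genes. All 10 genes that had fallen at week 1 were among the 38. A further 19 had risen at both steps, and 9 rose at week 2 only, having passed in neither direction at week 1 (the difference between the steps was not tested). Both steps share the week 1 libraries, so a fall followed by a rise is not independent evidence. The 7 genes that did not pass were Orc3, Orc4, Orc5, Dbf4, Pola1, Rfc3 and Tyms, and of these all but Orc5 had risen at week 1.

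From week 2 to week 3, 12 genes fell and 0 rose, against a background of 21.3% called, 10.6% higher and 10.7% lower. The share called, 26.7%, was near the background, and all of these calls were in 1 direction. At an unadjusted p under 0.05 the counts were 20 lower and 1 higher, where 17% of all tested genes were lower and 17.6% higher. The 12 were Mcm3, Mcm10, Gins1, Prim1, Prim2, Pcna, Rfc2, Lig1, Rrm1, Rrm2, Tyms and Tk1, and 7 of them (Mcm10, Prim1, Pcna, Rfc2, Lig1, Rrm2 and Tk1) still passed when any 1 library was left out. Between GS cells and week 3, 6 genes were higher (Mcm4, Mcm10, Cdc45, Prim1, Pcna and Tk1) and 5 lower (Orc1, Cdt1, Cdc7, Gins3 and Pola1), against 22.5% called, 11.7% higher and 10.8% lower, so both counts were near the background. Only Cdc45, Gins3, Prim1 and Tk1 passed this comparison without any 1 of the libraries; the count of calls fell to 4 without week 3 replicate 1, without GS replicate 1 or without GS replicate 2.

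Over the whole course, from week 0 to GS cells, 33 genes were higher and 5 lower, where 80.6% of tested genes were called, 34.7% higher and 45.9% lower. The median log2 difference was 0.89 over the 45 genes and -0.21 over all tested genes. Quantile normalization gave 38 higher and 3 lower and moved the median of all genes to 0.45. It called 84% of all tested genes, and 61.1% of those calls were higher, against 43% in the main fit. The 5 lower genes were Gins2, Pola2, Pold2, Rfc2 and Rpa1, and Gins2, Rfc2 and Rpa1 remained lower under both other scalings. At least a 2-fold difference in mean FPKM was seen in 22 genes that were higher and 1 that was lower (Rfc2). Over all genes 23.6% were at least 2-fold higher and 38.3% at least 2-fold lower.

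**Figure D2:**
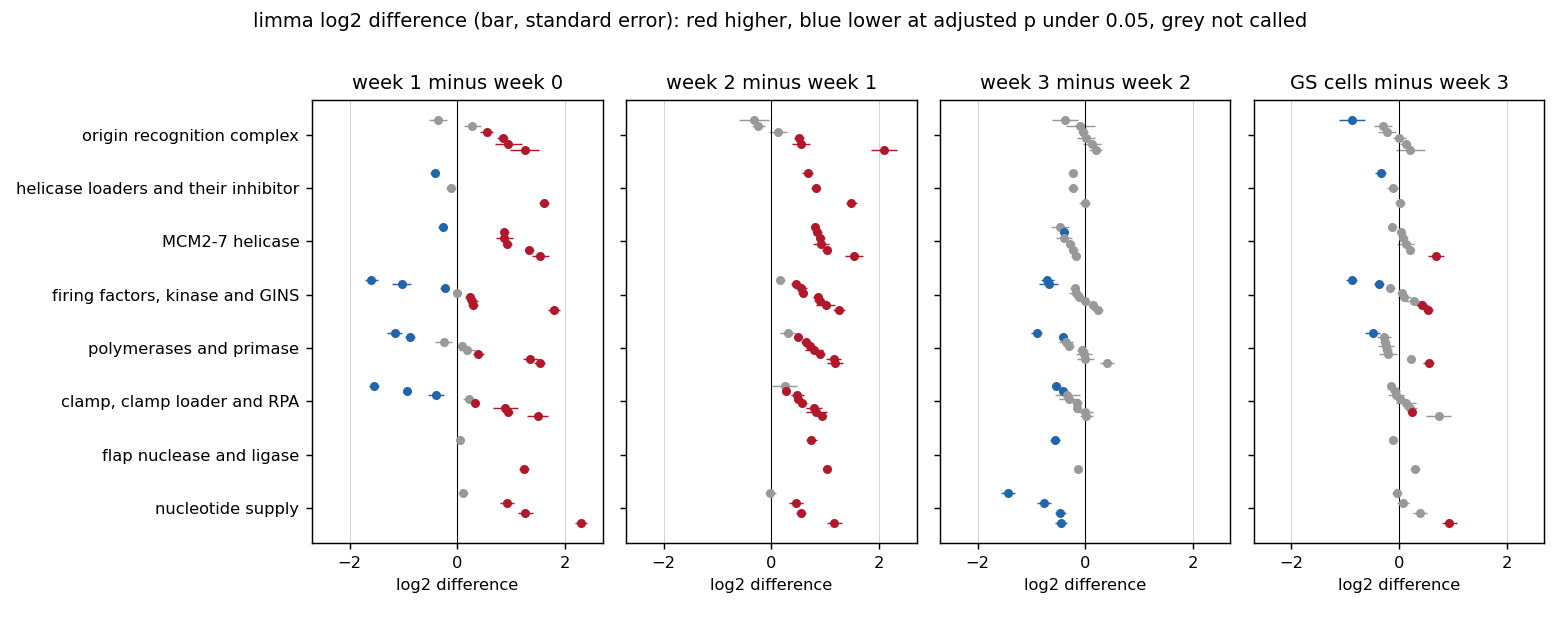
Each point is 1 gene, placed by its limma log2 difference on the log2(FPKM + 1) scale in 4 consecutive comparisons, grouped by role and sorted within a role, with its standard error as a bar. Red marks 25, 38, 0 and 6 genes called higher and blue 10, 0, 12 and 5 called lower, from the left panel to the right, and grey marks genes that did not pass.

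The 6 subunits of ORC passed the test at different steps, 4 of them higher at week 1, 3 higher at week 2 and 0 at week 3. Orc1, the large subunit whose abundance is known to follow the cell cycle (chr4:108579423-108614833, plus strand), was at 8.95 and 11.9 FPKM in week 0, 25.2 and 17.3 in week 1, 82.0 and 105 in week 2, 83.6 and 60.2 in week 3 and 33.8 and 43.3 in GS cells. The libraries of weeks 2 and 3 were the highest and overlapped, and both week 0 libraries were the lowest. Orc1 rose 2.04-fold in mean FPKM at week 1 (log2 difference 0.95, SE 0.24, adjusted p = 0.00642) and 4.39-fold at week 2 (log2 difference 2.096, SE 0.24, adjusted p = 0.000181), the largest rise of the 45 genes at that step. It was lower in GS cells than at week 3 (log2 difference -0.87, SE 0.24, adjusted p = 0.0367), a call that was lost without week 3 replicate 1 (adjusted p = 0.184), GS replicate 1 (0.184) or GS replicate 2 (0.0643).

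Orc5, another core subunit, was at 18.1 and 16.8 FPKM (week 0), 14.8 and 12.1 (week 1), 14.3 and 15.0 (week 2), 13.8 and 18.9 (week 3) and 12.3 and 14.9 (GS cells). Its groups overlapped from week 1 on, and none of the 5 comparisons passed. Orc3, Orc4 and Orc6 rose at week 1 (log2 differences 0.55, 1.25 and 0.84), and Orc2 and Orc6 rose at week 2 (0.55 and 0.51). The rise of Orc2 was lost without week 1 replicate 2 (adjusted p = 0.0911) or week 2 replicate 2 (0.119). Orc1 was the lowest of the 6 subunits in both week 0 libraries and the highest in both week 2 libraries. Orc5 was the lowest in all 8 cultured libraries. The ratio of Orc1 to Orc2 in FPKM was 0.468 and 0.658 in week 0, 1.06 and 0.790 in week 1, 2.60 and 2.87 in week 2, 2.80 and 1.53 in week 3 and 1.40 and 1.37 in GS cells. Exons of Orc2 overlap those of Nif3l1 on the opposite strand over 29.8% of their length, and the sources used here do not give whether the counting used strand.

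The helicase loaders and their inhibitor had different courses. Cdt1, which brings MCM2-7 to ORC (chr8:122568015-122573554, plus strand), was at 15.7 and 18.04 FPKM (week 0), 54.2 and 52.7 (week 1), 84.6 and 87.1 (week 2), 92.0 and 79.1 (week 3) and 69.0 and 65.0 (GS cells). All 8 cultured libraries were far above both week 0 libraries. Cdt1 rose 3.17-fold at week 1 (log2 difference 1.61, SE 0.099, adjusted p = 9.5e-07) and rose again at week 2 (log2 difference 0.67, SE 0.099, adjusted p = 0.00063). In GS cells it was below week 3 (log2 difference -0.34, SE 0.099, adjusted p = 0.041), but this call was lost in 7 of 10 fits that left out 1 library, with adjusted p up to 0.204.

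Cdc6, the ATPase that loads the helicase together with ORC (chr11:98907801-98923940, plus strand), was at 7.46 and 8.05 FPKM in week 0, 6.96 and 7.11 in week 1, 21.2 and 21.97 in week 2, 18.2 and 18.5 in week 3 and 16.4 and 17.2 in GS cells. Week 0 and week 1 were both low, and every later library was above them. The step at week 2 was 3.07-fold (log2 difference 1.49, SE 0.094, adjusted p = 7.84e-06), whereas week 1 did not pass against week 0 (log2 difference -0.12, SE 0.094, adjusted p = 0.257). Gmnn, the geminin gene, was at 52.6 and 49.0 FPKM (week 0), 39.6 and 35.9 (week 1), 67.8 and 67.3 (week 2), 59.6 and 55.3 (week 3) and 60.5 and 55.8 (GS cells). It was called lower at week 1 (log2 difference -0.42, SE 0.085, adjusted p = 0.00181), a difference that was 0.041 with quantile normalization (adjusted p = 0.67) and missed the threshold with a common FPKM sum (0.0689), and it rose at week 2 (log2 difference 0.82, SE 0.085, adjusted p = 9.59e-05). The FPKM ratio of Cdt1 to Gmnn was 0.298 and 0.368 in week 0, 1.37 and 1.47 in week 1, 1.25 and 1.29 in week 2, 1.54 and 1.43 in week 3 and 1.141 and 1.164 in GS cells, so Gmnn exceeded Cdt1 in both week 0 libraries and Cdt1 exceeded Gmnn in all 8 cultured ones.

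Of the 6 subunits of the MCM2-7 helicase, the ring that unwinds DNA at the fork, 5 rose at week 1 and all 6 rose at week 2. Mcm2 (chr6:88883474-88898780, minus strand) was at 58.2 and 57.7 FPKM (week 0), 95.1 and 121 (week 1), 295 and 331 (week 2), 263 and 195 (week 3) and 227 and 268 (GS cells). The groups at weeks 0, 1 and 2 did not overlap, and Mcm2 was the highest of the 45 genes in all 6 libraries of weeks 2 and 3 and GS cells. It rose at week 1 (log2 difference 0.88, SE 0.17, adjusted p = 0.00118) and 2.90-fold at week 2 (log2 difference 1.54, SE 0.17, adjusted p = 0.000119). Mcm4 (chr16:15623897-15637400, minus strand) was at 13.2 and 19.2 FPKM in week 0, 45.8 and 50.7 in week 1, 90.0 and 95.0 in week 2, 66.2 and 74.3 in week 3 and 111 and 116 in GS cells. Week 0 was lowest and GS cells were highest, with no overlap between them and any other group, and the mean in GS cells was 7.01-fold that of week 0 (log2 difference 2.76, SE 0.15, adjusted p = 5.1e-07), the largest difference of the 45 genes in that comparison. Its rise from week 3 to GS cells (log2 difference 0.68, SE 0.15, adjusted p = 0.0165) was lost without week 3 replicate 1 (adjusted p = 0.0874), GS replicate 1 (0.0687) or GS replicate 2 (0.0776).

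Mcm7 (chr5:138164583-138172422, minus strand), whose annotated exons overlap the microRNA genes Mir25 and Mir93, stood apart from the other subunits at week 0, at 98.6 and 99.1 FPKM (week 0), 86.0 and 77.5 (week 1), 143 and 154 (week 2), 129.7 and 134 (week 3) and 159.6 and 144 (GS cells). It was the highest of the 6 subunits in both week 0 libraries. Its fall at week 1 was small (log2 difference -0.27, SE 0.082, adjusted p = 0.0141), was lost without week 0 replicate 1 (adjusted p = 0.0504), week 0 replicate 2 (0.0545) or week 1 replicate 2 (0.0878), and turned into a called rise with quantile normalization (log2 difference 0.27, adjusted p = 0.0101). At week 2 it rose with the others (log2 difference 0.85, SE 0.082, adjusted p = 6.71e-05). Mcm3, Mcm5 and Mcm6 rose at week 1 by log2 differences of 1.34, 0.87 and 0.93 and at week 2 by 0.82, 1.03 and 0.91. Of the 6, only Mcm3 passed as lower at week 3 (log2 difference -0.39, adjusted p = 0.0112), and this call was lost without week 2 replicate 1 (adjusted p = 0.0851) or week 3 replicate 2 (0.0579).

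The subunits act as a ring with 1 copy of each, and their mRNA levels drew closer in culture. The ratio of the highest to the lowest of Mcm2 to Mcm7 was 7.47 and 5.17 in week 0, 2.26 and 2.38 in week 1, 3.28 and 3.48 in week 2, 3.98 and 2.62 in week 3 and 2.16 and 2.58 in GS cells. Both week 0 ratios were above every cultured one. This was not shared by all complexes. For Orc1 to Orc6 the same ratio was 3.19 and 2.16 in week 0 and 3.695 to 6.96 in the 8 cultured libraries. Mcm4 was the lowest subunit in all 8 libraries of weeks 0 to 3 and Mcm6 in both GS libraries, while the highest was Mcm7 at week 0, Mcm3 in week 1 replicate 1 and Mcm2 in the other 7.

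**Figure D3:**
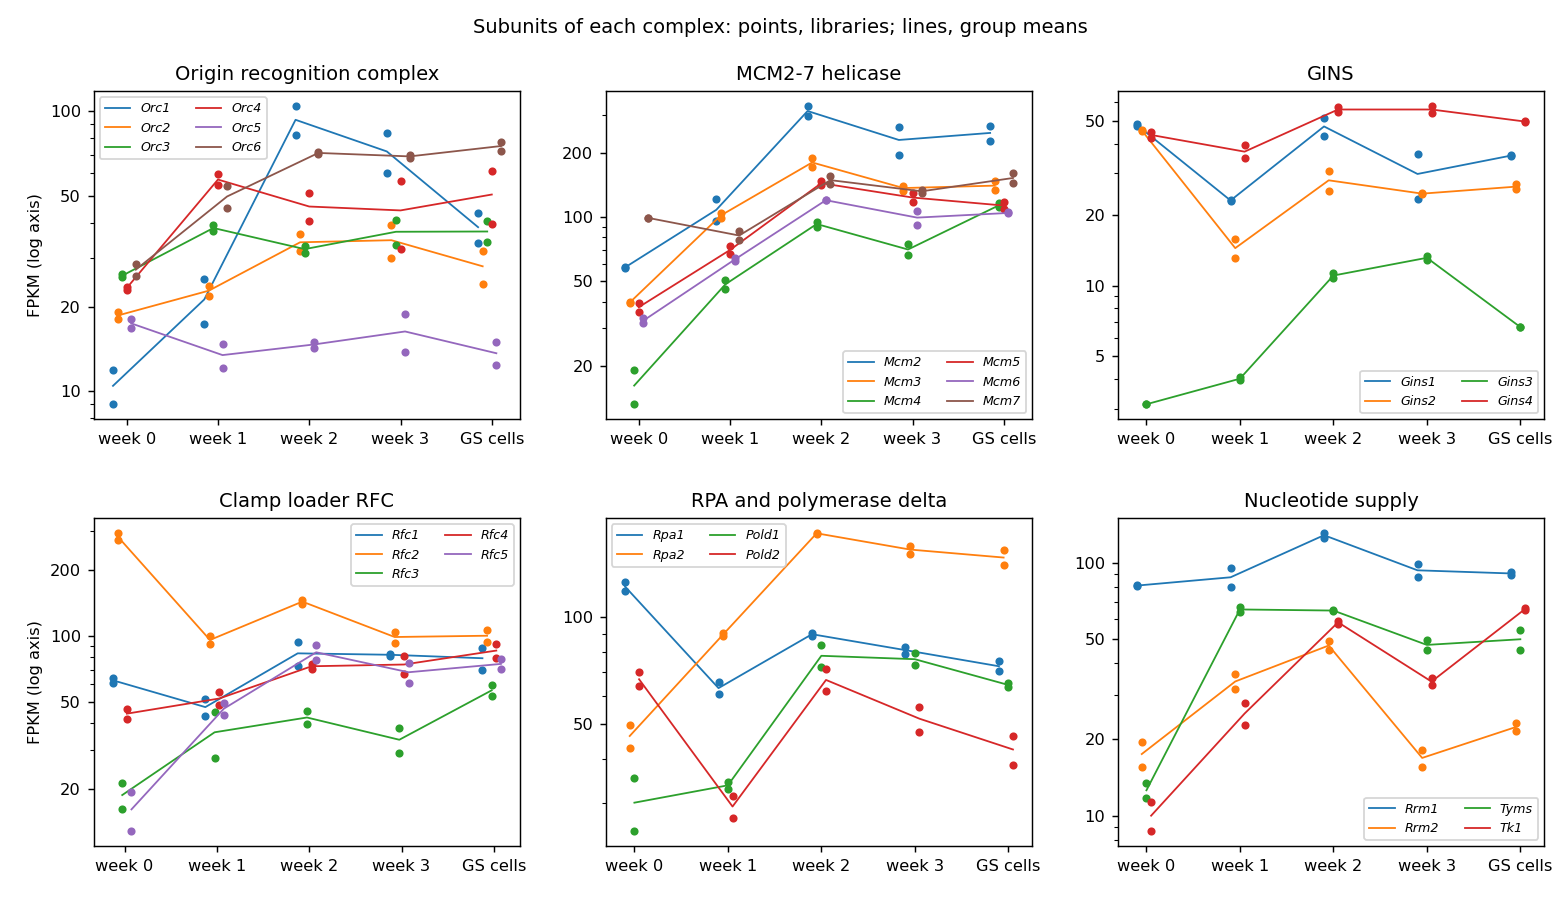
FPKM on log axes for the subunits of ORC, MCM2-7, GINS, the clamp loader RFC, RPA with polymerase delta, and for the nucleotide supply enzymes; points are libraries and lines join group means. The MCM2-7, GINS and RFC subunits are farthest apart at week 0, where Rfc2 is at 272 and 294 FPKM and Rfc5 at 12.8 and 19.5.

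Among the factors that fire an origin, Mcm10, which helps to activate the helicase (chr2:4989714-5012791, minus strand), had the largest rise at week 1. It was at 7.74 and 9.34 FPKM (week 0), 33.3 and 30.99 (week 1), 45.1 and 49.8 (week 2), 26.96 and 30.7 (week 3) and 38.5 and 39.5 (GS cells). Week 0 lay below all other libraries, and week 2 above all of them. The rise at week 1 was 3.76-fold (log2 difference 1.80, SE 0.11, adjusted p = 1.12e-06), the fall at week 3 passed (log2 difference -0.70, SE 0.11, adjusted p = 0.00457), and the rise from week 3 to GS cells (log2 difference 0.42, SE 0.11, adjusted p = 0.0317) was lost without week 3 replicate 1 (adjusted p = 0.157), GS replicate 1 (0.105) or GS replicate 2 (0.123).

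Cdc45, a part of the active helicase (chr16:18780447-18811987, minus strand), did not pass at week 1 and was highest in GS cells, at 29.5 and 30.7 FPKM in week 0, 28.6 and 31.7 in week 1, 54.1 and 57.0 in week 2, 46.2 and 50.6 in week 3 and 72.7 and 68.6 in GS cells. Week 2 was higher than week 1 (log2 difference 0.86, SE 0.086, adjusted p = 8.28e-05) and GS cells were higher than week 3 (log2 difference 0.54, SE 0.086, adjusted p = 0.00446), and both calls held without any 1 library. Cdc7, the kinase that Dbf4 activates, was at 22.7 and 25.1 FPKM (week 0), 28.4 and 30.6 (week 1), 38.9 and 42.9 (week 2), 37.6 and 37.9 (week 3) and 28.3 and 29.9 (GS cells). It rose at weeks 1 and 2 (log2 differences 0.29 and 0.46), the first rise being lost without week 0 replicate 1 (adjusted p = 0.11) or week 1 replicate 2 (0.0795), and was lower in GS cells than at week 3 (log2 difference -0.37, SE 0.091, adjusted p = 0.0245), where the call was lost without any 1 of the 4 libraries compared (adjusted p 0.0675 to 0.122). Its activator Dbf4 rose at week 1 (0.23, adjusted p = 0.0296), a call lost without week 0 replicate 1 (adjusted p = 0.148) or week 1 replicate 1 (0.157), and passed no later step.

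GINS is a complex with 1 copy of each of its 4 subunits, and these did not share 1 course. Gins2 (chr8:120578633-120589304, minus strand) was at 45.5 and 45.7 FPKM in week 0, 15.7 and 13.1 in week 1, 30.7 and 25.2 in week 2, 24.4 and 24.7 in week 3 and 26.9 and 25.6 in GS cells. Both week 0 libraries were above all 8 others, and week 1 was the lowest group. It fell at week 1 (log2 difference -1.60, SE 0.12, adjusted p = 3.06e-06) and rose at week 2 (log2 difference 0.91, SE 0.12, adjusted p = 0.00033) without reaching the week 0 level. The exons of Gins2 overlap those of Gse1 on the opposite strand over 67.3% of their length, so that without strand in the counting reads from that stretch could be shared with Gse1.

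Gins3 (chr8:95633453-95645060, plus strand) had another course at a much lower level, at 3.13 and 3.14 FPKM (week 0), 4.08 and 3.96 (week 1), 10.8 and 11.3 (week 2), 12.8 and 13.4 (week 3) and 6.68 and 6.64 (GS cells). Weeks 2 and 3 were highest, GS cells lay between them and week 1, and week 0 was lowest, with no overlap between groups. It rose 2.74-fold at week 2 (log2 difference 1.26, SE 0.10, adjusted p = 3.24e-05) and fell back in GS cells (log2 difference -0.88, SE 0.10, adjusted p = 0.00131), and both calls held without any 1 library. Its small rise at week 1 (0.28, adjusted p = 0.036) was lost in 6 of 10 fits without 1 library (adjusted p up to 0.112).

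Gins1 was at 48.5 and 47.5 FPKM in week 0, 22.8 and 23.2 in week 1, 43.3 and 51.4 in week 2, 23.3 and 36.2 in week 3 and 35.8 and 35.4 in GS cells. It fell at week 1 (log2 difference -1.03, SE 0.18, adjusted p = 0.000739) and rose at week 2 (log2 difference 1.01, SE 0.18, adjusted p = 0.00177), and the replicates at week 3 differed by more than those of any other group. Its fall at week 3 (log2 difference -0.68, SE 0.18, adjusted p = 0.031) was lost without week 2 replicate 1 (adjusted p = 0.0657), week 2 replicate 2 (0.163) or week 3 replicate 1 (0.0899), and the log2 difference without the last was -0.37. Gins4 varied least of the 4, at 44.9 and 42.3 FPKM (week 0), 39.3 and 34.7 (week 1), 57.2 and 54.5 (week 2), 57.9 and 53.9 (week 3) and 49.4 and 49.9 (GS cells). Its fall at week 1 (log2 difference -0.23, SE 0.086, adjusted p = 0.0342) became a difference of 0.22 with quantile normalization (adjusted p = 0.0551) and 0.014 with a common FPKM sum (0.887), and it was lost without either week 0 library, week 1 replicate 2 or either week 2 library (adjusted p up to 0.188). The log2 difference without week 1 replicate 2 was -0.14. Gins4 rose at week 2 (0.58). The highest of the 4 subunits was 15.5 and 15.1 times the lowest at week 0, 9.64 and 8.76 times at week 1, and 4.02 to 7.52 times later.

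Polymerase alpha and primase begin each new strand. The catalytic subunit of the polymerase, Pola1 (chrX:93304767-93632155, minus strand), was at 1.82 and 2.27 FPKM in week 0, 6.90 and 6.69 in week 1, 8.54 and 8.69 in week 2, 11.1 and 12.3 in week 3 and 7.40 and 8.74 in GS cells. It was the lowest of the 45 genes in both week 0 libraries, and every cultured library was above both of them. Pola1 rose 3.32-fold at week 1 (log2 difference 1.36, SE 0.13, adjusted p = 1.87e-05). Its mean was highest at week 3, and its lower level in GS cells (log2 difference -0.49, SE 0.13, adjusted p = 0.0326) was lost in 6 of 10 fits without 1 library (adjusted p up to 0.166).

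Pola2, the accessory subunit of the same enzyme, was at 25.8 and 24.7 FPKM (week 0), 12.5 and 14.2 (week 1), 25.8 and 26.03 (week 2), 20.7 and 20.9 (week 3) and 17.9 and 16.5 (GS cells). Weeks 0 and 2 were close, week 1 was lowest, and GS cells were below weeks 0, 2 and 3. It fell at week 1 (log2 difference -0.87, SE 0.095, adjusted p = 3.82e-05), rose at week 2 (log2 difference 0.91, SE 0.095, adjusted p = 0.000102) and was lower in GS cells than at week 0 (log2 difference -0.53, SE 0.095, adjusted p = 0.000879), a call that missed the threshold with quantile normalization (log2 difference -0.055, adjusted p = 0.603) and with a common FPKM sum (-0.064, 0.557).

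Prim1, the primase that makes the RNA primers (chr10:128015168-128030037, plus strand), was at 9.04 and 10.9 FPKM in week 0, 31.3 and 29.8 in week 1, 49.4 and 47.3 in week 2, 24.5 and 26.5 in week 3 and 38.5 and 37.2 in GS cells. The groups separated in the order week 0, week 3, week 1, GS cells and week 2 with no overlap. It rose at week 1 (log2 difference 1.53, SE 0.10, adjusted p = 1.5e-06) and week 2 (log2 difference 0.65, SE 0.10, adjusted p = 0.000886), fell at week 3 (log2 difference -0.90, SE 0.10, adjusted p = 0.000966) and was higher in GS cells (log2 difference 0.55, SE 0.10, adjusted p = 0.00753), and all 4 calls held without any 1 library. Prim2, its regulatory subunit, had a narrower range, at 23.6 and 22.8 FPKM (week 0), 24.6 and 24.5 (week 1), 34.3 and 35.6 (week 2), 26.2 and 26.05 (week 3) and 29.5 and 31.7 (GS cells). Prim2 rose at week 2 (0.49) and fell at week 3 (log2 difference -0.41, SE 0.078, adjusted p = 0.00898), the latter lost without week 2 replicate 2 (adjusted p = 0.0692). The ratio of Pola1 to Prim1 was 0.173 to 0.235 in the 8 libraries outside week 3 and 0.455 and 0.465 at week 3.

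Polymerase delta copies mainly the lagging strand. Its catalytic subunit Pold1 (chr7:44532746-44548849, minus strand) was at 24.97 and 35.2 FPKM in week 0, 32.9 and 34.4 in week 1, 72.6 and 83.4 in week 2, 79.2 and 73.4 in week 3 and 65.3 and 63.8 in GS cells. Weeks 0 and 1 were low and overlapped, and all later libraries were well above them. It rose 2.32-fold at week 2 (log2 difference 1.19, SE 0.15, adjusted p = 0.000263). Pold2, the accessory subunit (chr11:5872180-5878292, minus strand), was at 64.0 and 70.0 FPKM (week 0), 27.2 and 31.4 (week 1), 61.9 and 71.5 (week 2), 56.0 and 47.7 (week 3) and 46.4 and 38.5 (GS cells). Week 1 was lowest, and weeks 0 and 2 overlapped. It fell at week 1 (log2 difference -1.17, SE 0.13, adjusted p = 5.26e-05) and rose at week 2 (log2 difference 1.158, SE 0.13, adjusted p = 0.000173), and it was lower in GS cells than at week 0 (log2 difference -0.65, SE 0.13, adjusted p = 0.0019), a call lost with quantile normalization (-0.19, adjusted p = 0.2) and with a common FPKM sum (-0.17, 0.256). The ratio of Pold1 to Pold2 was 0.39 and 0.503 at week 0 and 1.09 to 1.66 in the 8 cultured libraries.

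Polymerase epsilon copies the leading strand. Its catalytic subunit Pole rose at week 1 (0.39, adjusted p = 0.00638) and at week 2 (0.71, 0.000496). The second subunit Pole2 was low throughout, from 5.03 to 11.6 FPKM, and passed only at week 2 among the 5 comparisons (0.80, adjusted p = 0.00362).

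PCNA, the ring that holds the polymerases on DNA, had the narrowest range of group means among the 8 clamp, loader and RPA genes, at 76.6 and 74.7 FPKM in week 0, 95.7 and 94.1 in week 1, 117 and 112 in week 2, 83.3 and 88.1 in week 3 and 103 and 98.6 in GS cells. Week 2 was above all other libraries and week 0 below them. Pcna rose at week 1 (log2 difference 0.32, SE 0.066, adjusted p = 0.00181) and at week 2 (log2 difference 0.27, SE 0.066, adjusted p = 0.00798) and fell at week 3 (log2 difference -0.42, SE 0.066, adjusted p = 0.004). The rise at week 2 was lost without week 2 replicate 1 (adjusted p = 0.0638), and the rise from week 3 to GS cells (0.23, adjusted p = 0.0391) in 8 of 10 fits without 1 library. The annotation names 2 Pcna pseudogenes, with which reads may be shared.

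The clamp loader RFC opens PCNA and has 5 subunits in 1 copy each. Rfc2 (chr5:134581366-134601805, plus strand) was at 272 and 294 FPKM (week 0), 91.9 and 99.4 (week 1), 139.9 and 146 (week 2), 93.0 and 104 (week 3) and 106 and 93.9 (GS cells). It was the highest of all 45 genes at week 0, and both week 0 libraries were above all 8 others. The mean at week 1 was 0.338 times that of week 0 (log2 difference -1.56, SE 0.092, adjusted p = 7.41e-07), and GS cells remained below week 0 (log2 difference -1.50, SE 0.092, adjusted p = 9.71e-07). In between it rose at week 2 (0.58) and fell at week 3 (-0.53, adjusted p = 0.0059). Its exons overlap those of Lat2 on the opposite strand over 15.1% of their length.

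Rfc5 (chr5:117378103-117389047, minus strand) moved the other way, at 12.8 and 19.5 FPKM in week 0, 49.4 and 43.6 in week 1, 90.9 and 77.2 in week 2, 60.8 and 75.5 in week 3 and 70.3 and 78.5 in GS cells. Week 0 was lowest, week 1 next, and the later groups partly overlapped. It rose 2.88-fold at week 1 (log2 difference 1.49, SE 0.19, adjusted p = 0.000113) and again at week 2 (log2 difference 0.84, SE 0.19, adjusted p = 0.00635). The FPKM ratio of Rfc2 to Rfc5 was 21.2 and 15.1 (week 0), 1.86 and 2.28 (week 1), 1.54 and 1.89 (week 2), 1.53 and 1.38 (week 3) and 1.51 and 1.20 (GS cells). Rfc3 rose at week 1 (0.89, and 0.55 without week 1 replicate 2), Rfc4 at week 2 (0.48, lost without week 1 replicate 1, adjusted p = 0.0644, or week 2 replicate 1, 0.0579), and Rfc1, the large subunit, fell at week 1 (-0.40, adjusted p = 0.0363) and rose at week 2 (0.79). The fall of Rfc1 was a difference of 0.10 with quantile normalization (adjusted p = 0.546) and of -0.15 with a common FPKM sum (0.357), and was lost in 5 of 10 fits without 1 library (adjusted p up to 0.193). Rfc2 was the highest of the 5 in all 10 libraries.

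RPA coats single-stranded DNA at the fork. Rpa1, its largest subunit (chr11:75298166-75348324, minus strand), was at 126 and 118 FPKM in week 0, 60.7 and 65.8 in week 1, 88.7 and 90.7 in week 2, 82.7 and 79.1 in week 3 and 75.2 and 70.6 in GS cells. Both week 0 libraries were above all others, and week 1 was lowest. It fell at week 1 (log2 difference -0.94, SE 0.074, adjusted p = 4.79e-06), rose at week 2 (log2 difference 0.50, SE 0.074, adjusted p = 0.000687) and stayed below week 0 in GS cells (log2 difference -0.74, SE 0.074, adjusted p = 2.28e-05). Rpa2, its partner (chr4:132768332-132778752, plus strand), was at 42.9 and 49.8 FPKM (week 0), 90.3 and 88.8 (week 1), 172 and 173 (week 2), 159 and 151 (week 3) and 155 and 140.2 (GS cells). It rose at both steps (0.94 and 0.94) with no overlap between weeks 0, 1 and 2. The ratio of Rpa1 to Rpa2 was 2.93 and 2.38 at week 0, 0.672 and 0.74 at week 1, and 0.486 to 0.524 in the later libraries.

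Fen1 and Lig1 finish the lagging strand: Fen1 cuts the flap at the end of each Okazaki fragment and ligase I, from Lig1, seals the nick. Lig1 (chr7:13277283-13311433, plus strand) was at 35.1 and 41.3 FPKM in week 0, 94.4 and 88.2 in week 1, 152 and 156 in week 2, 110.3 and 97.7 in week 3 and 126 and 129.6 in GS cells. Week 0 was lowest and week 2 highest, and neither overlapped with any other group. Lig1 rose at week 1 (log2 difference 1.24, SE 0.096, adjusted p = 4.15e-06) and week 2 (log2 difference 0.75, SE 0.096, adjusted p = 0.000309) and fell at week 3 (log2 difference -0.56, SE 0.096, adjusted p = 0.00565). Fen1 was at 26.7 and 28.6 FPKM (week 0), 29.03 and 28.4 (week 1), 60.2 and 60.1 (week 2), 56.0 and 53.9 (week 3) and 52.5 and 48.6 (GS cells). Weeks 0 and 1 overlapped and did not pass (log2 difference 0.05, SE 0.076, adjusted p = 0.557), and week 2 was 2.097-fold higher (log2 difference 1.04, SE 0.076, adjusted p = 1.6e-05). Exons of Fen1 overlap Gm10143 and Tmem258, on the opposite strand, over 84.2% of their length, so that there too reads could be shared.

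All 4 genes of nucleotide supply fell at week 3. Tyms, thymidylate synthase (chr5:30058202-30073617, minus strand), was at 11.7 and 13.5 FPKM in week 0, 63.9 and 66.9 in week 1, 64.9 and 64.6 in week 2, 45.1 and 49.6 in week 3 and 54.3 and 45.4 in GS cells. It had reached its week 2 level already at week 1, a 5.20-fold rise in the mean (log2 difference 2.29, SE 0.11, adjusted p = 1.91e-07) and the largest of the 45 genes at that step. Week 2 did not pass against week 1 (log2 difference -0.014, SE 0.11, adjusted p = 0.942), and the fall at week 3 (log2 difference -0.45, SE 0.11, adjusted p = 0.0233) was lost without either week 2 library (adjusted p = 0.105 and 0.101) or without week 3 replicate 1 (0.122). The annotation names a Tyms pseudogene.

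Tk1, thymidine kinase of the salvage pathway (chr11:117815526-117826092, minus strand), was at 11.3 and 8.66 FPKM (week 0), 22.8 and 27.8 (week 1), 58.9 and 57.4 (week 2), 32.9 and 34.9 (week 3) and 66.2 and 65.1 (GS cells). Tk1 rose at week 1 (log2 difference 1.26, SE 0.13, adjusted p = 3.09e-05), rose at week 2 (log2 difference 1.18, SE 0.13, adjusted p = 0.00016), fell at week 3 (log2 difference -0.76, SE 0.13, adjusted p = 0.00623) and was higher in GS cells (log2 difference 0.93, SE 0.13, adjusted p = 0.00263). The groups did not overlap, and these 4 calls held without any 1 library. GS cells were 6.57-fold above week 0 in mean FPKM (log2 difference 2.61, SE 0.13, adjusted p = 3.02e-07).

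Ribonucleotide reductase makes deoxyribonucleotides, and its 2 subunits differed. Rrm2, the subunit known to be made in S phase (chr12:24708241-24714146, plus strand), was at 19.5 and 15.6 FPKM in week 0, 36.3 and 31.6 in week 1, 49.0 and 45.2 in week 2, 15.6 and 18.2 in week 3 and 21.5 and 23.2 in GS cells. Week 2 was the highest group, and week 3 overlapped with week 0. Rrm2 rose at week 1 (log2 difference 0.92, SE 0.13, adjusted p = 0.000239), and its rise at week 2 (log2 difference 0.46, SE 0.13, adjusted p = 0.018) was lost without week 1 replicate 2 (adjusted p = 0.0966) or week 2 replicate 1 (0.098). At week 3 the mean was 0.359 times that of week 2 (log2 difference -1.43, SE 0.13, adjusted p = 0.000423), the largest fall of the 45 genes at that step. Its difference between GS cells and week 0 (0.34, adjusted p = 0.0407) was lost in 5 of 10 fits without 1 library, and was 0.19 without week 0 replicate 2 (adjusted p = 0.257).

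Rrm1, the large subunit (chr7:102441695-102469771, plus strand), was at 81.8 and 80.9 FPKM (week 0), 95.3 and 80.1 (week 1), 131 and 126 (week 2), 99.4 and 87.5 (week 3) and 91.7 and 89.9 (GS cells). Weeks 0 and 1 overlapped, and week 2 was above all other libraries. Rrm1 rose at week 2 (log2 difference 0.55, SE 0.097, adjusted p = 0.00167) and fell at week 3 (log2 difference -0.46, SE 0.097, adjusted p = 0.0135), the latter lost without week 2 replicate 1 (adjusted p = 0.0822), week 2 replicate 2 (0.058) or week 3 replicate 2 (0.0708). The ratio of Rrm2 to Rrm1 was 0.238 and 0.192 in week 0, 0.381 and 0.394 in week 1, 0.372 and 0.359 in week 2, 0.157 and 0.208 in week 3 and 0.235 and 0.258 in GS cells.

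Other genes of the same pathways were counted over lists made by function. At week 1 36.3% of all tested genes were higher and 44% lower, and at week 2 28.2% and 27.4%. Of 9 further licensing and firing genes, 2 rose and 3 fell at week 1 (4 and 3 with quantile normalization), and 8 rose and 0 fell at week 2. Lrwd1, a partner of ORC, was at 239 and 225 FPKM (week 0), 38.5 and 42.1 (week 1), 63.7 and 65.7 (week 2), 70.8 and 65.9 (week 3) and 86.0 and 72.4 (GS cells). It fell at week 1 (log2 difference -2.50, adjusted p = 5.62e-08) and rose at week 2 (0.67, adjusted p = 0.000586), and week 0 was above every other library. Donson and Mtbp, which help the helicase to become active, also fell at week 1 (-1.92 and -1.68) and rose at week 2 (1.04 and 0.48). The week 1 replicates of Donson were 15.4 and 35.5 FPKM, and its rise at week 2 was 0.47 without week 1 replicate 1 and 1.62 without week 1 replicate 2, and was lost without either week 2 library (adjusted p = 0.0714 and 0.0653). That of Mtbp was lost without week 1 replicate 2 (adjusted p = 0.0513) or week 2 replicate 1 (0.0672).

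Of 21 further fork and Okazaki fragment genes, 10 rose and 4 fell at week 1 (16 and 2 with quantile normalization), and 13 rose and 2 fell at week 2. Rnaseh2a, the catalytic subunit of the RNase that removes RNA from DNA, was at 1055 and 1070.4 FPKM in week 0, 103 and 115 in week 1, 142 and 132 in week 2, 146 and 156 in week 3 and 176 and 158 in GS cells. Both week 0 libraries were above all others, and the fall at week 1 had a log2 difference of -3.28 (adjusted p = 5.97e-09). Its partner Rnaseh2b rose at that step (1.54, adjusted p = 5.42e-06). Pold4, the small subunit of polymerase delta, was at 3.00 and 6.14 FPKM (week 0), 43.5 and 51.5 (week 1), 6.37 and 5.45 (week 2), 3.396 and 3.51 (week 3) and 7.23 and 5.39 (GS cells), and its week 1 libraries were far above all others.

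Among 11 genes of chromatin assembly behind the fork, 5 rose and 4 fell at week 1 (7 and 4 with quantile normalization), and 10 rose and 0 fell at week 2. The 2 large subunits of the histone chaperone CAF-1 diverged at week 1: Chaf1a fell (log2 difference -2.05, adjusted p = 6.2e-07) and Chaf1b rose (0.52, adjusted p = 0.00564; 0.33 without week 0 replicate 1). Both rose at week 2 (1.23 and 1.12). Hells, a chromatin remodeller, was at 49.1 and 61.3 FPKM in week 0, 204 and 218 in week 1, 310.0 and 304 in week 2, 309 and 300.3 in week 3 and 266 and 306 in GS cells and rose at both steps (1.92 and 0.54).

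Of 14 further genes of nucleotide supply, 11 rose and 0 fell at week 1, 11 rose and 0 fell at week 2, and 1 rose and 3 fell at week 3. Dctd, which makes the precursor of thymidylate, was at 5.24 and 6.01 FPKM (week 0), 27.95 and 30.5 (week 1), 38.4 and 39.1 (week 2), 40.6 and 40.5 (week 3) and 39.9 and 35.4 (GS cells), with all 8 cultured libraries above both week 0 libraries. Ppat, at the start of purine synthesis, rose at weeks 1 and 2 (log2 differences 1.42 and 0.63), as did Ctps, which makes CTP (1.54 and 0.52).

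Of 20 genes of E2F and replication control, 8 rose and 8 fell at week 1 (11 and 5 with quantile normalization), and 12 rose and 3 fell at week 2. The week 1 counts, 40% in each direction, were near the background. The activator E2f1 was at 7.11 and 8.10 FPKM in week 0, 23.1 and 22.6 in week 1, 36.9 and 39.5 in week 2, 28.7 and 28.4 in week 3 and 32.1 and 28.8 in GS cells, lowest at week 0 and highest at week 2 without overlap (E2f1 and the cyclin genes that follow were picked after their values were seen). Ccna2, the cyclin of S phase, was at 22.04 and 20.7 FPKM (week 0), 51.4 and 50.7 (week 1), 83.8 and 85.4 (week 2), 59.4 and 65.0 (week 3) and 51.2 and 55.0 (GS cells), and Ccne2, a cyclin of the G1 to S step, was at 34.5 and 39.2 FPKM in week 0, 17.02 and 15.7 in week 1, 26.3 and 21.1 in week 2, 22.7 and 18.9 in week 3 and 10.7 and 12.1 in GS cells. Ccna2 was thus lowest at week 0 and Ccne2 highest there. The widest ranges in this list belonged to Rbl2, a repressor of E2F targets in resting cells, Cdkn1a, the inhibitor p21, and E2f6. Rbl2 was at 58.8 and 55.9 FPKM at week 0 and 5.29 or less in all cultured libraries. Cdkn1a was at 8.85 and 8.72 FPKM (week 0), 267 and 259 (week 1), 63.5 and 63.2 (week 2), 25.9 and 34.7 (week 3) and 54.4 and 50.1 (GS cells), with week 1 above all other groups. E2f6, a repressor of the same family, rose at weeks 1 and 2 (log2 differences 1.58 and 0.42).

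Of 25 genes of mitosis, the phase that follows replication, 4 rose and 15 fell at week 1, 24 rose and 0 fell at week 2, and 1 rose and 9 fell at week 3. Their median log2 difference at week 1 was -0.45, against 0.29 for the 45 replication genes and -0.14 for all tested genes; this difference between lists was not tested. The split at week 1 depended on the scaling: it was 9 higher and 8 lower with quantile normalization, where the median of the list was 0.087 and that of all genes 0.38, and 8 higher and 11 lower with a common FPKM sum (-0.20 and 0.088). Plk1, a kinase of mitotic entry, was at 81.8 and 71.6 FPKM in week 0, 12.8 and 12.6 in week 1, 35.1 and 37.4 in week 2, 30.7 and 28.2 in week 3 and 25.2 and 23.1 in GS cells. Aurka and Nek2, kinases of the centrosome, also fell at week 1 (log2 differences -2.16 and -2.36) and rose at week 2 (0.89 and 0.95).

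**Figure D4:**
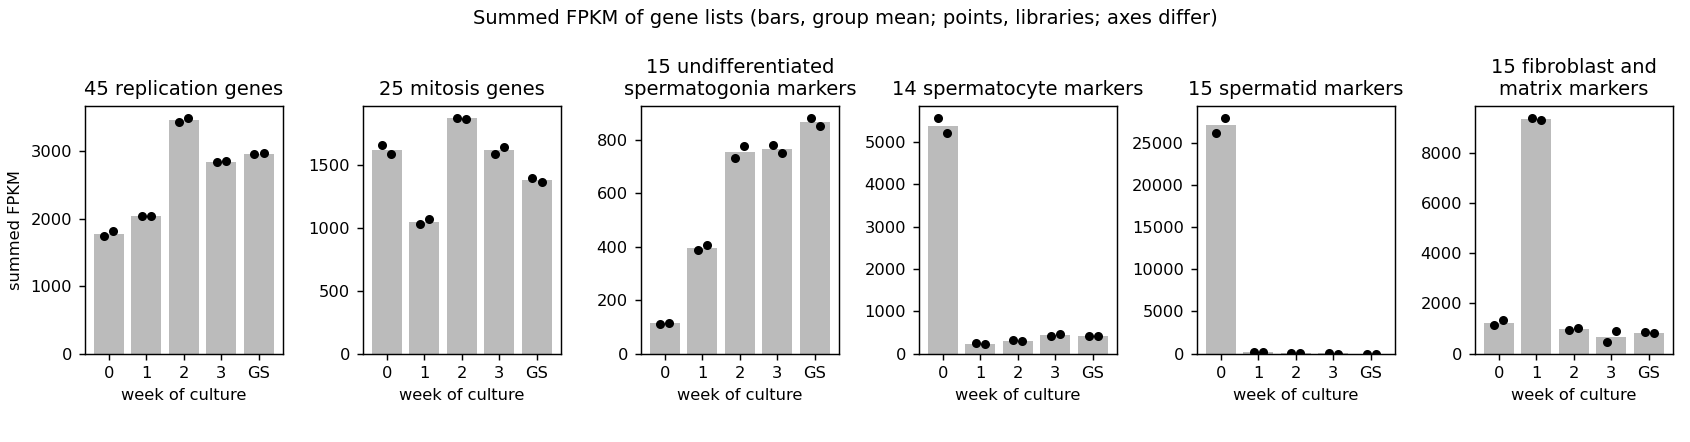
Summed FPKM of 6 gene lists in each group, with bars for group means, points for libraries and a separate axis for each list. The 45 replication genes sum to 3429 and 3496 FPKM at week 2 and to 1746 and 1811 at week 0, where spermatid and spermatocyte markers are highest, while fibroblast and matrix markers are highest at week 1.

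Several cell type markers moved with these results. The 15 spermatid markers all fell at week 1 and 13 of the 14 spermatocyte markers did. In that comparison 10 of the 45 replication genes fell and 25 rose, and 44% of all tested genes fell. In GS cells the spermatid sum was 9.73 and 11.6 FPKM, with 8 of the 15 markers listed at 0 in replicate 1 and 7 in replicate 2, among them Prm1, Prm2 and Tnp2, the sperm chromatin genes. All 15 fibroblast and matrix markers rose at week 1 and fell at week 2, the step at which 38 of the 45 replication genes rose. Sertoli cell markers, 10 in number, summed to 537 and 535 FPKM at week 0, 283 and 279.8 at week 1 and 17.01 to 26.5 later, and 8 Leydig cell markers to 1802 and 1552, 77.9 and 84.8 and 2.87 to 10.1. From week 2 to week 3, where 12 replication genes fell, the markers of undifferentiated spermatogonia summed to 734 and 776 and 783 and 751 FPKM, with 6 of the 15 higher and 5 lower. At that step week 3 replicate 1 and replicate 2 differed in the fibroblast and matrix sum, at 444 and 898 FPKM. The part of these markers' cells in the changes of the replication genes was not tested.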

How the data were processed

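Poly(A) RNA of 10 libraries was sequenced after TRIzol extraction and stranded library preparation from 200 ng of total RNA, per the labels' protocols. The authors deposited FPKM per gene. Per the submitters' processing notes the tools were Cufflinks 2.2.1 with Cuffdiff, HISAT2 2.1.0, Bowtie2 2.3.4.1, bcl2fastq 2.17.1.14 and cutadapt 1.16, and the build was mm10. The sources used here do not give the annotation release, the normalization or the use of strand in counting. FPKM are not counts, so the deposited values were taken as log2(FPKM + 1) and genes that reached FPKM 1 in 2 or more libraries were kept. One limma 3.58.1 model (R 4.3.3, empirical Bayes with trend) over the 5 groups gave 5 two-sided comparisons and an F test, with Benjamini-Hochberg adjustment over all genes tested. A fold is a ratio of mean FPKM, and log2 differences understate the change of low genes.

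The members and lists were chosen with earlier results of these data known. Values in every library are given for the 5 members that changed most in each comparison with groups that do not overlap, for the members with the widest and the narrowest range of group means in each role, and for the 5 largest changes against the main direction; in other lists the 3 genes with the widest range of group means are named. Cdc45 and Rpa2 were added after their values were seen. Gene positions are from GENCODE M21 (GRCm38). Alternatives were 2 scalings, another pseudocount, a stricter filter and none, fits of 2 groups only, no trend, a replicate block and leaving out each library.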

Additional observations from a re-analysis of the deposited data

How the results depend on the processing

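Of 97 pairs of a named gene and a comparison it passed, 1746 values under the alternatives kept direction and call in 1637, lost the call in 105 and reversed in 4. The named genes were picked largely for large changes, and leaving out a library of another group cannot change a log2 difference. A high share kept is therefore partly fixed in advance. Genes outside that choice, such as Rfc1, Orc2, Dbf4 and Rfc4, are not in the tally. Of 287 counts of called genes under the alternatives, 265 were within 1.5 times the main count and 22 were not. With quantile normalization and with a common FPKM sum, 6 and 6 genes were lower from week 0 to week 1 (10 as reported) and 3 and 3 from week 0 to GS cells (5 as reported). Over all genes, 59.8% and 51.8% of calls were then higher from week 0 to week 1 (45.2% as reported). From week 0 to GS cells the shares were 61.1% and 54.6% (43% as reported). The differences that reversed from week 0 to week 1 were Gmnn (0.041, quantile), Mcm7 (0.27, quantile) and Gins4 (0.22, quantile, and 0.014, common sum). The median of the 45 genes between GS cells and week 3, 0.019 as reported, was -0.012 with quantile normalization and -0.027 with a common sum, and from -0.039 to 0.019 with 1 library left out. With only the 2 groups compared in the fit, 1 gene was lower at week 2 against week 1, and 5 genes were called between GS cells and week 3, of which 1 was lower. With no filter 3 were lower there, and with no trend 1 gene was higher at week 3 against week 2. The cause of these shifts was not tested. Over all genes, fits of 2 groups gave 1880 calls (3339 as reported) at week 3 against week 2 and 1326 (3526 as reported) between GS cells and week 3; such fits have fewer residual degrees of freedom.

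With each library left out in turn, 29 to 35 genes were called from week 0 to week 1 (22 to 25 higher, 7 to 10 lower), 35 to 38 at week 2, 8 to 13 at week 3, 4 to 13 between GS cells and week 3 (3 to 8 higher, 1 to 5 lower), 35 to 39 from week 0 to GS cells (5 to 6 lower) and 42 to 44 by the F test. The lone library of a group was then assumed to vary like the others. With all libraries, 77.8% of the replication genes were called at week 1, 84.4% at week 2 and 84.4% from week 0 to GS cells. Of all tested genes 80.3%, 55.6% and 80.6% were, so only the week 2 share was well above the background. Without 1 library the median log2 difference was 0.29 to 0.37, 0.68 to 0.75 and 0.86 to 0.91 over the replication genes. The median of all genes was then -0.18 to 0.058, 0.0091 to 0.074 and -0.23 to 0. Over all genes, leaving out a library gave 1573 to 3520 calls at week 3 against week 2 and 1748 to 3702 between GS cells and week 3.

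The groups share replicate numbers in the labels. Deviations of libraries with the same number correlated at -0.0525 to 0.0458 over 10 pairs of groups, so no shared deviation was seen. With 2 libraries a group, this cannot tell whether libraries with the same number share an animal, culture or run. With a replicate block, 34, 38, 12, 8 and 39 genes were called in the 5 comparisons, in the order of the report, and 44 by the F test; 3 genes were lower between GS cells and week 3 (5 as reported). Depth limits the low genes most: the fewest reads estimated for any of the 45 were 75, for Gins3, against a median of 1767.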
